A study of Mus musculus with 6 samples.

Results

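ZNF is a mouse leukemia and lymphoma cell line of the T-lineage type, and the comparison described here is its transcriptome after 24 h with BGJ398 against DMSO. BGJ398 (infigratinib) is an inhibitor of the FGF receptor kinases, and DMSO is the solvent. Gene entries were taken from the deposited table of FPKM (fragments scaled by transcript length and by the number mapped) when the mean of the 2 ZNF libraries was at least 1 FPKM, which 12417 of 17169 entries met. Plag1, at 0.817 FPKM with DMSO and 1.18 with BGJ398, lay just inside that limit, and Gpr12, at 0.0462 and 1.95, lay just outside. The study compared 3 lines of stem cell leukemia and lymphoma syndrome (SCLL), BBC, ZNF and BCRF8C by their sample names, each with and without inhibition of FGFR1. All 3 were derived from bone marrow of diseased Balb/c mice and were grown in RPMI 1640 medium with fetal bovine serum. If the doses follow the order in which the protocol lists the lines, ZNF received 3 nM, BBC 30 nM and BCRF8C 1.5 nM of BGJ398, and a dose cannot be told apart from its line. The labels name 1 library for each line and agent, so no difference within ZNF has a replicate check and none carries a p-value.

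SCLL arises when a chromosomal translocation joins a partner gene to the kinase portion of FGFR1, and the fused receptor signals without its ligand. Active FGFR1 feeds the RAS to ERK cascade, STAT transcription factors and phosphoinositide 3-kinase, and each branch has known target genes, among them inhibitors that act back on the branch. ZMYM2, formerly ZNF198, is a common partner in patients, but the labels do not name the partner in the ZNF line. Disease with this partner often presents as a lymphoma of immature T cells, in which the T cell receptor genes are still being assembled by the RAG recombinase.

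The T-lineage label was checked against marker genes. Of 12 T-lineage markers, 8 had an entry, and all 8 passed the mean of 1 FPKM, with a summed level of 1092 FPKM with DMSO and 699 with BGJ398. The most abundant was Cd3g, a chain of the T cell receptor complex, at 335 and 186 FPKM. Cd3e, Cd4, Ptcra and Bcl11b had no entry and were not analysed here. Of 7 B-lineage markers, 4 (among them Cd79b, Vpreb1 and Igll1) were listed at 0 in both libraries, and the 7 summed to 0.430 FPKM with DMSO and 7.52 with BGJ398. The myeloid markers Lyz2 and Mpo and the erythroid markers Hba-a1, Hbb-b1 and Alas2 were also listed at 0 in both. Only 3 of 8 myeloid markers had an entry, and the remaining one, Cebpa, was at 0.0488 and 5.02 FPKM, while the erythroid regulator Gata1 was at 5.17 and 1.89. The stromal and endothelial list summed to 26.0 and 18.5 FPKM, nearly all of it from Pecam1 (25.6 and 15.3 FPKM), an adhesion molecule also made by leukocytes.

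A listed 0 has a limit of its own. Of 13984 entries above 0 in ZNF, 13983 reached at least 0.9 FPKM in 1 of its 2 libraries, and the other 3185 stood at 0 in both. The 17155 entries above 0 in BBC all reached at least 1.02 FPKM in a BBC library. The rows therefore hold a selection of genes, and an entry that was nearly silent with DMSO had to be higher with BGJ398 to be listed above 0.

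Abundant transcripts were mostly lower with BGJ398, and scarce ones were mostly higher. The median entry stood at 11.1 FPKM with DMSO and 7.98 FPKM with BGJ398. On the scale log2((BGJ398 FPKM + 1)/(DMSO FPKM + 1)), called the ratio as deposited below, 9070 entries were lower and 3346 higher, and the median was -0.48 (quartiles -0.85 and 0.07). At least 2-fold differences were found for 1635 entries that were higher (13.2% of 12417) and 2020 that were lower (16.3%), so 55.3% of the entries 2-fold apart were lower. That share was 17.2% when each library was scaled by the median of ratios and 43.9% after quantile normalization, and the median over all entries was then 0.07 and -0.11. Directions as deposited are thus relative to the authors' scaling.

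The ratio also followed the expression level. A loess curve through all entries stood at 1.23 where the 2 libraries averaged 1 FPKM, at -0.09 at 3 FPKM, at -0.65 at 15 FPKM and at -0.94 at 127 FPKM. Subtracting it gives the trend-removed ratio, which compares an entry with others of like abundance and has a median of 0.00 (quartiles -0.32 and 0.35). On this scale 1210 entries were at least 2-fold higher (9.74%) and 690 lower (5.56%). For the 10313 protein-coding entries, to which nearly all genes below belong, the shares were 6.18% higher (637) and 3.61% lower (372), against 8.69% (896) and 15.7% (1618) as deposited. These shares are the background for the counts of each gene list. Near 1 FPKM the curve lies above 0, so an entry that differed little as deposited can count as lower. Of 764 protein-coding entries at 0.5 to 2 FPKM with DMSO, 105 were at least 2-fold lower with the trend removed and 2 as deposited.

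**Figure D1:**
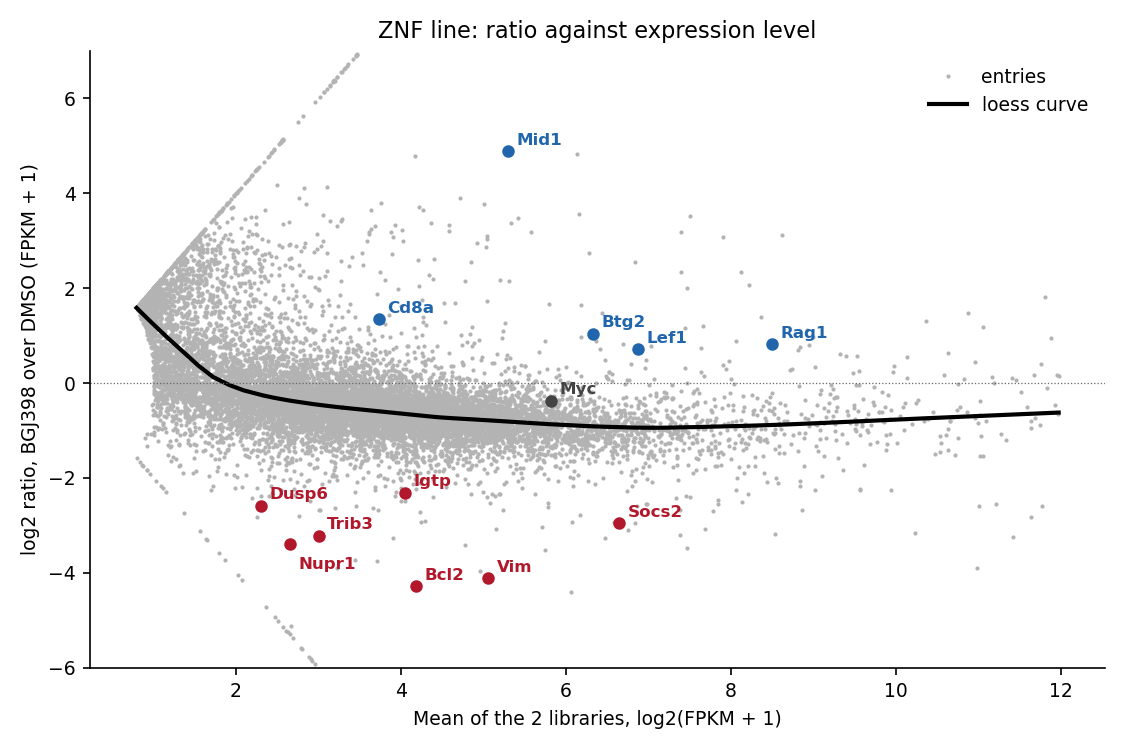
Log2 ratio of BGJ398 over DMSO in ZNF (FPKM + 1) against the mean log2(FPKM + 1) of the 2 libraries. Grey points are 12310 entries (107 lie outside the axes), the black line is the loess curve, and named genes are coloured red where lower than the curve by at least 2-fold, blue where higher by at least 2-fold and dark grey otherwise. The diagonal rows of points are entries at or near 0 in 1 library, and the curve falls from 1.23 at a mean of 1 FPKM to -0.94 at 127 FPKM.

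The transcript of the targeted receptor lay within 2-fold between the libraries. Fgfr1 (ENSMUSG00000031565) was at 12.9 FPKM with DMSO and 10.1 with BGJ398, a ratio of -0.33 as deposited and 0.25 with the trend removed. Reads of a fused and an unfused Fgfr1 transcript are summed in such a value. Zmym2 was at 48.7 and 39.3 FPKM. Of the other FGF receptors and ligands on an 11-member list, Fgf9, an FGF ligand, went from 0.146 to 4.37 FPKM and Fgfr2 from 0.102 to 4.07, both nearly silent with DMSO. Frs3, an adaptor that couples FGF receptors to RAS, was at 1.51 and 1.14 FPKM, which is 1.12 below the curve on the log2 scale. As deposited its ratio was only -0.23. The list had 2 members higher and 1 lower by at least 2-fold with the trend removed, and its median was 0.23. That median is the value of Fgf2 (0.001 and 2.27 FPKM). Fgf9 and Fgfr2, the 2 higher, could pass the mean of 1 FPKM only through the BGJ398 library, so they had to be higher as deposited. The same holds for Fgf2 and for Fgfr3 (0.384 and 2.06 FPKM).

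Of 4 phosphatase genes on the ERK feedback list, 3 were at least 2-fold lower with the trend removed, while Etv5 was lower and Cic higher. Dusp6 (ENSMUSG00000019960), a phosphatase specific for ERK, had a trend-removed ratio of -2.33. Dusp4, a nuclear phosphatase of the same family, went from 16.6 to 2.14 FPKM (trend-removed ratio -2.05), and Dusp5 from 15.6 to 4.14 (-1.19). Dusp7, the fourth, was at 7.03 and 5.32 FPKM (0.07). Etv5, an ETS transcription factor induced by ERK, was at 3.68 and 1.23 FPKM (-1.23). Etv4, its close relative, stood at 0.342 FPKM with DMSO and 5.29 with BGJ398 (1.86). Etv4 could pass the mean of 1 FPKM only through the BGJ398 library, so it had to be higher as deposited. Phlda1 went from 8.09 to 15.3 FPKM (1.41), and Cic, a repressor that ERK inactivates, from 10.5 to 15.4 (1.11). Spry1, an inhibitor of RAS signalling, was at 7.75 and 4.59 FPKM (-0.23), and Spry2 and Spry4 were listed at 0 in both libraries. In all, 4 of 14 members were at least 2-fold lower and 3, Etv4 among them, were higher with the trend removed, around a median of -0.31.

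Immediate early genes, which growth signals switch on within minutes, were not lower as a list. Of 15 members, 3 were at least 2-fold higher with the trend removed and 0 lower, and the median was 0.34. That median is the value of Egr2 (0.153 and 2.45 FPKM). Egr2 and Egr3 (0.164 and 2.28 FPKM) passed only through the BGJ398 library, so they had to be higher as deposited. Among members with a mean of at least 5 FPKM the median was 0.38. Btg2, which restrains proliferation, went from 55.2 to 115 FPKM (trend-removed ratio 1.95), and the related Btg1 from 18.9 to 39.9 (1.80). Jun, a subunit of the AP-1 transcription factor, was at 1.19 and 4.66 FPKM (1.33). Fos and Egr1 stayed below a mean of 1 FPKM, at 0.238 and 0.954 FPKM for Fos and 0.174 and 1.59 for Egr1.

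Targets of STAT5, the transcription factor downstream of many cytokine receptors, included Bcl2, the protein-coding gene with the lowest ratio by the rule for single genes. Bcl2 (ENSMUSG00000057329, chr1:108434755-108610851 in NCBIM37), which blocks the mitochondrial pathway of cell death, went from 79.2 to 3.11 FPKM. Its ratio was -4.29 as deposited and -3.61 with the trend removed. D630008O14Rik, an entry within the same locus, went from 35.1 to 1.42 FPKM, and since the counting of strand is not given, reads of the 2 entries cannot be told apart. Socs2, an inhibitor of cytokine signalling that STAT5 induces, went from 278 to 34.96 FPKM (trend-removed ratio -2.03). Cish, of the same family, went from 1.45 to 0.720 FPKM (-1.68, but only -0.51 as deposited). Pim1, a survival kinase, was at 37.8 and 8.08 FPKM (-1.41), and Ccnd3, a cyclin of the G1 phase, at 86.3 and 20.02 (-1.23). The Ccnd3 locus is shared with Bysl, which went from 12.6 to 5.21 FPKM.

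Osm, also on the list, was lower too, at 8.71 and 2.66 FPKM (-1.06), but several other STAT5 targets did not share these ratios. Socs3 was higher, at 9.87 and 13.7 FPKM (1.01), and Socs1 (70.8 and 28.7 FPKM, -0.44) and Ccnd2 (13.6 and 8.04 FPKM, -0.13) lay within 2-fold of the curve. The list counted 6 of 16 members at least 2-fold lower and 1 higher with the trend removed, although its median was only -0.30. STAT5 transcripts themselves lay near the curve, with Stat5a at 16.3 and 10.9 FPKM and Stat5b at 18.2 and 11.1.

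Among 10 BCL2 family members that passed, Bcl2 was the 1 member lower and Bmf the 1 member higher by at least 2-fold with the trend removed. Bmf encodes a BH3-only protein, a class that promotes death by binding BCL2-like survival proteins, and went from 10.7 to 19.02 FPKM (1.40). Bcl2l11, which encodes the BH3-only protein BIM, was at 15.8 and 17.6 FPKM (0.82), and Bbc3, which encodes PUMA, at 4.92 and 6.78 (0.80). Mcl1 and Bcl2l1, the genes of 2 other survival proteins, were at 65.9 and 47.0 FPKM (0.39) and at 17.5 and 12.9 FPKM (0.23). The p53 list had a median of 0.49, which was 0.09 among members with a mean of at least 5 FPKM. It had 2 of 16 members at least 2-fold higher with the trend removed, Trp53inp1 at 65.7 and 108 FPKM and the death receptor gene Tnfrsf10b at 0.345 and 3.74. Tnfrsf10b could pass the mean of 1 FPKM only through the BGJ398 library and so had to be higher as deposited.

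**Figure D2:**
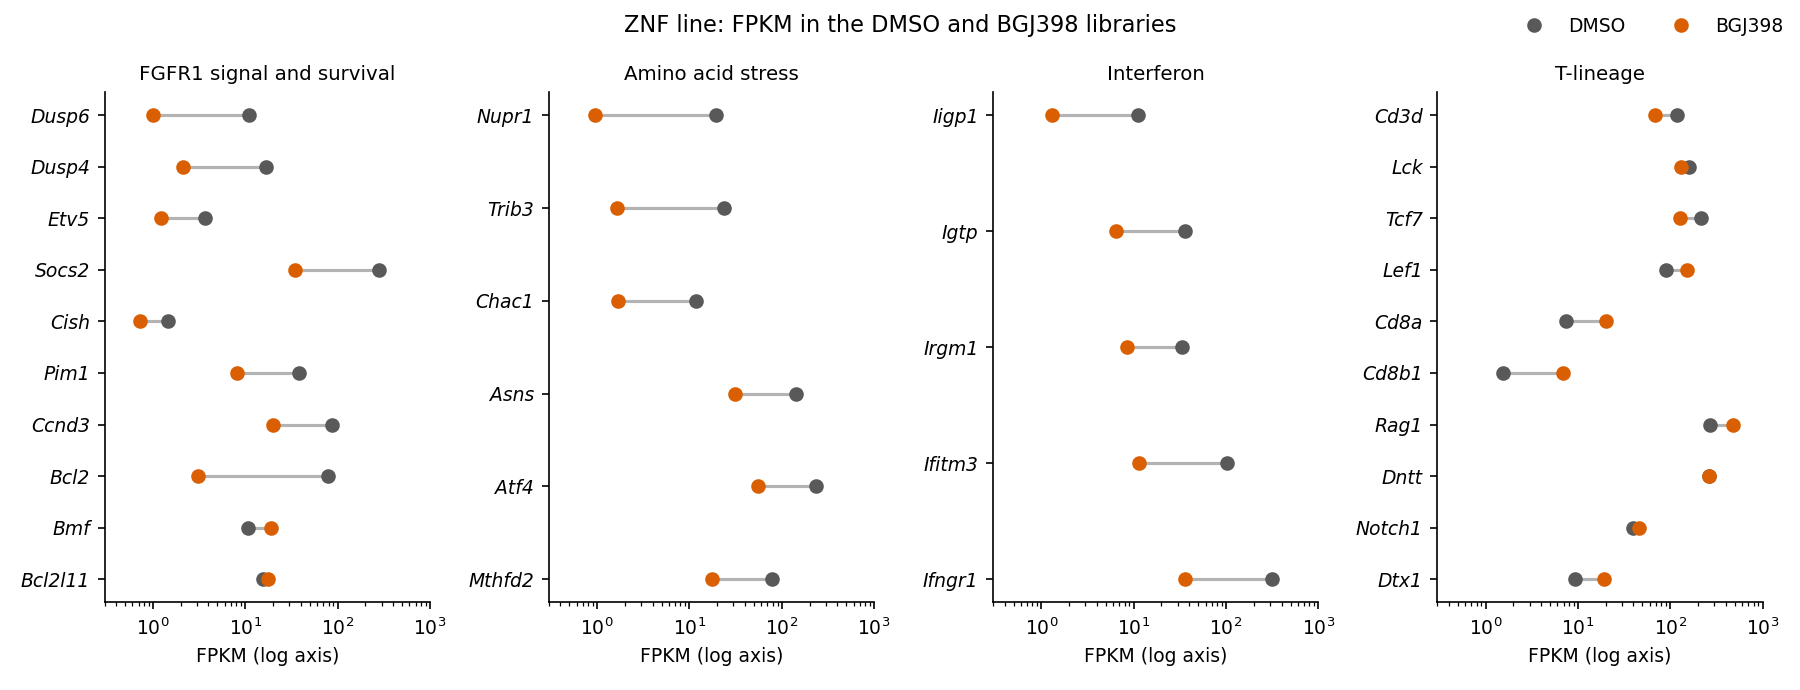
FPKM on a log axis in the DMSO library (grey) and the BGJ398 library (orange) of ZNF, 1 row for each gene, 1 library on each side. Bcl2 moves from 79.2 to 3.11 FPKM and Nupr1 from 19.5 to 0.940, while Rag1, Lef1, Cd8a, Cd8b1 and Dtx1 lie higher with BGJ398 and Dntt is at 264 and 260 FPKM.

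Genes of T cell identity lay near the curve, and a few were higher. Of 20 T cell receptor and signalling genes, 3 were at least 2-fold higher with the trend removed and 0 lower, and the median was 0.31 (-0.41 as deposited). Cd8a (ENSMUSG00000053977, chr6:71323421-71329165 in NCBIM37), a chain of the CD8 coreceptor, went from 7.34 to 20.3 FPKM, a ratio of 1.35 as deposited and 1.95 with the trend removed. Cd8b1, its partner chain, went from 1.55 to 6.88 FPKM (trend-removed ratio 1.82), and Lcp2, which encodes the adaptor SLP-76, from 23.9 to 58.5 (2.07). The lowest member was Skap1, an adaptor linking the receptor to integrins, at 95.2 and 26.9 FPKM (-0.93). Lck, the kinase that starts T cell receptor signalling, was at 161 and 131 FPKM (0.65).

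Of 20 T-lineage transcription factors, 2 were at least 2-fold higher with the trend removed and 0 lower, around a median of 0.26. Egr2 and Egr3, which passed only through the BGJ398 library, are on this list too. Among members with a mean of at least 5 FPKM the median was 0.28. Lef1 (ENSMUSG00000027985), a partner of β-catenin in thymocytes, went from 90.9 to 150 FPKM (trend-removed ratio 1.66), and Ikzf3 from 14.3 to 22.8 (1.32). Tcf7, related to Lef1, was at 217 and 128 FPKM (0.18), and Gata3 at 13.1 and 10.5 (0.30). The Notch list, whose receptors commit progenitors to the T-lineage, had 4 of 11 members at least 2-fold higher and 0 lower with the trend removed, with a median of 0.46. These were the receptor gene Notch1 (39.0 and 45.5 FPKM) and the target genes Hes1 (11.4 and 16.7), Dtx1 (9.39 and 19.4) and Hes5 (0.222 and 4.06). As deposited, Hes5 alone of the list was 2-fold apart. Hes5 could pass the mean of 1 FPKM only through the BGJ398 library, so it had to be higher as deposited. Notch3 and Ptcra had no entry.

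Of the genes that assemble T cell receptors, Rag1 and Dntt were abundant in ZNF with either agent. Rag1 (ENSMUSG00000061311, chr2:101400938-101489689 in NCBIM37), a subunit of the recombinase, went from 272 to 482 FPKM, a ratio of 0.83 as deposited and 1.71 with the trend removed. Its locus is shared with B230118H07Rik, at 6.496 and 10.3 FPKM. Dntt, the polymerase that adds bases at the joints, was at 264 and 260 FPKM (0.89). Arpp21, a gene of thymocytes, was at 55.7 and 63.1 FPKM (1.05). The repair polymerase gene Poll was at 2.06 and 0.588 FPKM (-1.95, but only -0.95 as deposited). With the trend removed, 3 of 14 members (Rag1 and Arpp21 higher, Poll lower) were at least 2-fold apart, and Rag2 had no entry. As deposited, the 1 member at least 2-fold apart was Hmgb2, at 116 and 51.7 FPKM (-1.15).

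Receptors for cytokines were mostly near the curve. Ifngr1, the ligand-binding chain of the interferon gamma receptor, was an exception, at 315 FPKM with DMSO and 36.1 with BGJ398 (trend-removed ratio -2.15). Of 15 members, 2 were at least 2-fold lower with the trend removed, and 0 were higher. Il7r, the interleukin 7 receptor, was below the mean of 1 FPKM, at 0.135 and 1.60 FPKM.

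Interferon response genes were lower as a list. Of 19 members, 8 were at least 2-fold lower and 0 higher with the trend removed (12 and 0 as deposited), and the median was -0.80 with the trend removed and -1.23 as deposited. Among members with a mean of at least 5 FPKM the trend-removed median was -0.49. The 8 were the GTPase genes Iigp1, Igtp, Irgm1 and Irgm2, the guanylate-binding protein genes Gbp2, Gbp3 and Gbp6, and Usp18. The product of Usp18 removes the ubiquitin-like protein ISG15. Iigp1 went from 11.02 to 1.30 FPKM (trend-removed ratio -2.10), and Igtp from 36.0 to 6.45 (-1.66). Irgm1 was at 33.2 and 8.40 FPKM (-1.19). Gbp6 (2.44 and 0.729 FPKM) and Usp18 (2.73 and 0.808 FPKM) were low in both libraries. As deposited, Gbp2 (-0.72) and Gbp6 (-0.99) were less than 2-fold lower. Isg15 was the highest member, at 2.61 and 3.49 FPKM (0.41).

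The interferon-stimulated response element was searched as GAAA, any 2 bases and GAAA on both strands in the 250 bases before each gene start (RefSeq, GRCm38.p6, a later build than that of the FPKM table). This motif was added after the values were seen. It occurred in 9 of 15 promoters of the list that were in the table and in 3.46% of all 27025 promoters. All 5 of the genes at least 2-fold lower that had a promoter there held it. The other 4 matches were in members that were not 2-fold lower with the trend removed, among them Isg15, Bst2 and Socs1 (Socs1 was 2-fold lower as deposited). The stretches around the motif are shown 5′ to 3′ on the gene's strand, with every match in the stretch in capitals, for 4 genes with lower levels and for Isg15, so that matches in both kinds of gene can be compared.
Igtp (chr11:58199492-58199555, + strand): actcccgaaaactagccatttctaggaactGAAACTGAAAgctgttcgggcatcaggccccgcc
Irgm2 (chr11:58214883-58214952, + strand): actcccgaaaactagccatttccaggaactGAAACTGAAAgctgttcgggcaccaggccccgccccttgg
Irgm1 (chr11:48871421-48871480, - strand): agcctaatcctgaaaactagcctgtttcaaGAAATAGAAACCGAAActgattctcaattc
Gbp3 (chr3:142559969-142560038, + strand): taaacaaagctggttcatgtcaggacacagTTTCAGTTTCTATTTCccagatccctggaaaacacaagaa
Isg15 (chr4:156200857-156200926, - strand): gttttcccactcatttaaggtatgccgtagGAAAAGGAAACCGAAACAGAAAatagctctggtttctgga
Isg15 held 3 overlapping matches, Irgm1 2 and Gbp3 2, the latter on the opposite strand. The windows of Igtp and Irgm2 were identical at 62 of the 64 bases compared, so these neighbours on chromosome 11 are not separate examples of the motif. Irgm2 went from 6.25 to 2.06 FPKM and Gbp3 from 6.28 to 1.996.

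MHC class I genes, many of which interferon induces, counted 0 of 15 members at least 2-fold apart with the trend removed, with a median of -0.30. As deposited 7 of the 15 were at least 2-fold lower, with a median of -0.96. Nlrc5, their transactivator, was at 6.90 and 2.35 FPKM (trend-removed ratio -0.97), and the immunoproteasome gene Psmb9 at 60.5 and 17.9 (-0.92). Outside the list, Ifitm3, which hinders viral entry, went from 102 to 11.3 FPKM (-2.27) and Ifitm1 from 5.97 to 0.553 (-2.30).

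Genes of the ATF4 programme, by which cells meet amino acid shortage through synthesis and import, were lower together. Of 25 ATF4, serine and folate genes, 9 were at least 2-fold lower and 0 higher with the trend removed, and 22 were lower as deposited. The median was -0.87 with the trend removed and -1.49 as deposited. Nupr1, a small stress-induced chromatin protein, went from 19.5 to 0.940 FPKM, and its trend-removed ratio of -3.03 was the lowest of the list. Trib3, a pseudokinase induced by ATF4, went from 23.4 to 1.63 FPKM (-2.75). Chac1, an enzyme that degrades glutathione, was at 11.8 and 1.68 FPKM (-1.92), and Mthfd2, of mitochondrial folate metabolism, at 79.1 and 17.7 (-1.29). Atf4 itself went from 233 to 55.1 FPKM (-1.12), and Asns, asparagine synthetase, had a trend-removed ratio of -1.27. Ddit4, an inhibitor of mTORC1 that stress also induces, was the highest member, at 12.6 and 15.5 FPKM (0.91).

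The element bound by ATF4 with C/EBP proteins was searched as TGATGNAAN on both strands in the same promoter windows. It was found in 4 of 21 promoters of the list and in 3.89% of all 27025, and 3 of the 8 genes at least 2-fold lower that had a promoter held it. The cyclic AMP element TGACGTCA was in 0 of the 21 and in 1.77% of all. The 4 stretches with a match, again with every match in capitals, include Slc7a11, the cystine importer, which was at 6.08 and 5.35 FPKM and so not lower with the trend removed (0.24).
Nupr1 (chr7:126625543-126625611, - strand): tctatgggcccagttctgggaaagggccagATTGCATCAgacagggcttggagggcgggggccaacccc
Chac1 (chr2:119351018-119351086, + strand): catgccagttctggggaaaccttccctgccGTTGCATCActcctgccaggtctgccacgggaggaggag
Asns (chr6:7693210-7693262, - strand): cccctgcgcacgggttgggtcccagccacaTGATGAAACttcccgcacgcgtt
Slc7a11 (chr3:50443641-50443709, - strand): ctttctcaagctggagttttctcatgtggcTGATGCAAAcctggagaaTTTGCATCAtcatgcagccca
The match is on the printed strand in Asns and on the opposite strand in Nupr1 and Chac1, and Slc7a11 has 1 match on each strand. Trib3, the gene with the second-lowest ratio of the list, was not among the 4.

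Cholesterol synthesis genes were lower with less spread. As deposited 22 of 22 members had a ratio below 0, and 16 were at least 2-fold lower, with a median of -1.19. With the trend removed the median was -0.62, and 4 members were at least 2-fold lower and 0 higher. They included Fdps and Mvd, enzymes of the isoprenoid steps (76.6 and 14.4 FPKM, and 10.9 and 2.91), and Sc4mol, a sterol oxidase (51.3 and 11.1). The sterol element TCACNCCAC was in 0 of 14 promoters and in 1.22% of all. Glycolysis genes had a median of -0.92 and 9 of 21 members at least 2-fold lower as deposited. With the trend removed the median was -0.40 and 1 member was 2-fold lower. This was the lactate exporter gene Slc16a3, at 1.84 and 1.26 FPKM, with a ratio of only -0.33 as deposited.

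Genes of mitosis and S phase and clustered histone genes were mostly lower. All 25 of the G2 and mitosis genes were at least 2-fold lower as deposited, with a median of -1.67, and 7 were so with the trend removed, with a median of -0.89 and 0 higher. Cdc25c, the phosphatase that starts mitosis, went from 17.9 to 3.61 FPKM (trend-removed ratio -1.53), and Plk1, a mitotic kinase, from 37.5 to 8.46 (-1.33). Cenpe, a kinetochore motor, was at 19.6 and 5.45 FPKM (-1.12), and Cdc20, which switches on the anaphase-promoting complex, at 78.5 and 20.3 (-1.08). Of 30 S phase genes, 25 were at least 2-fold lower as deposited (median -1.24) and 0 were 2-fold apart with the trend removed (median -0.41). Fen1, a nuclease of lagging-strand synthesis, had the lowest value of them, at 75.2 and 22.5 FPKM (-0.88). The clustered histone genes, which are transcribed in S phase, counted 26 of 61 members at least 2-fold lower and 0 higher with the trend removed, with a median of -0.90 (-1.65 as deposited). Hist1h2bh, for example, went from 597 to 69.5 FPKM. Histone copies are nearly identical in sequence, and reads may be split among them. The list of G1 cyclins and CDK inhibitors had a median of 0.05 with the trend removed and -0.58 as deposited. Of its 16 members, 1 was at least 2-fold lower and 0 higher with the trend removed. Cdkn1a, which encodes the inhibitor p21, was at 13.4 and 16.1 FPKM (0.88).

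The MYC list, which holds factors of the MYC network as well as target genes, had a median close to the curve. Myc had a trend-removed ratio of 0.50. The list had a median of -0.87 as deposited and -0.03 with the trend removed, and 8 of 25 members were at least 2-fold lower as deposited. With the trend removed 17 lay below 0 and 8 above, and 1 was at least 2-fold higher and 0 lower. The target genes ran from -0.51 (Ldha) to 0.13 (Ppan), and of these only Ppan, Ncl and Eif4a1 lay above 0. The member at least 2-fold higher was Mxd4, at 7.87 and 22.8 FPKM (2.04), whose product competes with MYC for its partner MAX. Mxd3, another of these competitors, was at 12.9 and 4.25 FPKM (-0.93), and Mxd1 was at 3.34 and 4.44 (0.57). The E-box CACGTG, which MYC and MAX bind, was in 9 of 21 promoters of the list and in 6.86% of all. Ribosome biogenesis (24 members, median -0.12) and cytosolic ribosomal proteins (79 members, median 0.01) each had 0 members at least 2-fold apart with the trend removed. As deposited, 8 of the 24 and 19 of the 79 were at least 2-fold lower, with medians of -0.91 and -0.77.

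**Figure D3:**
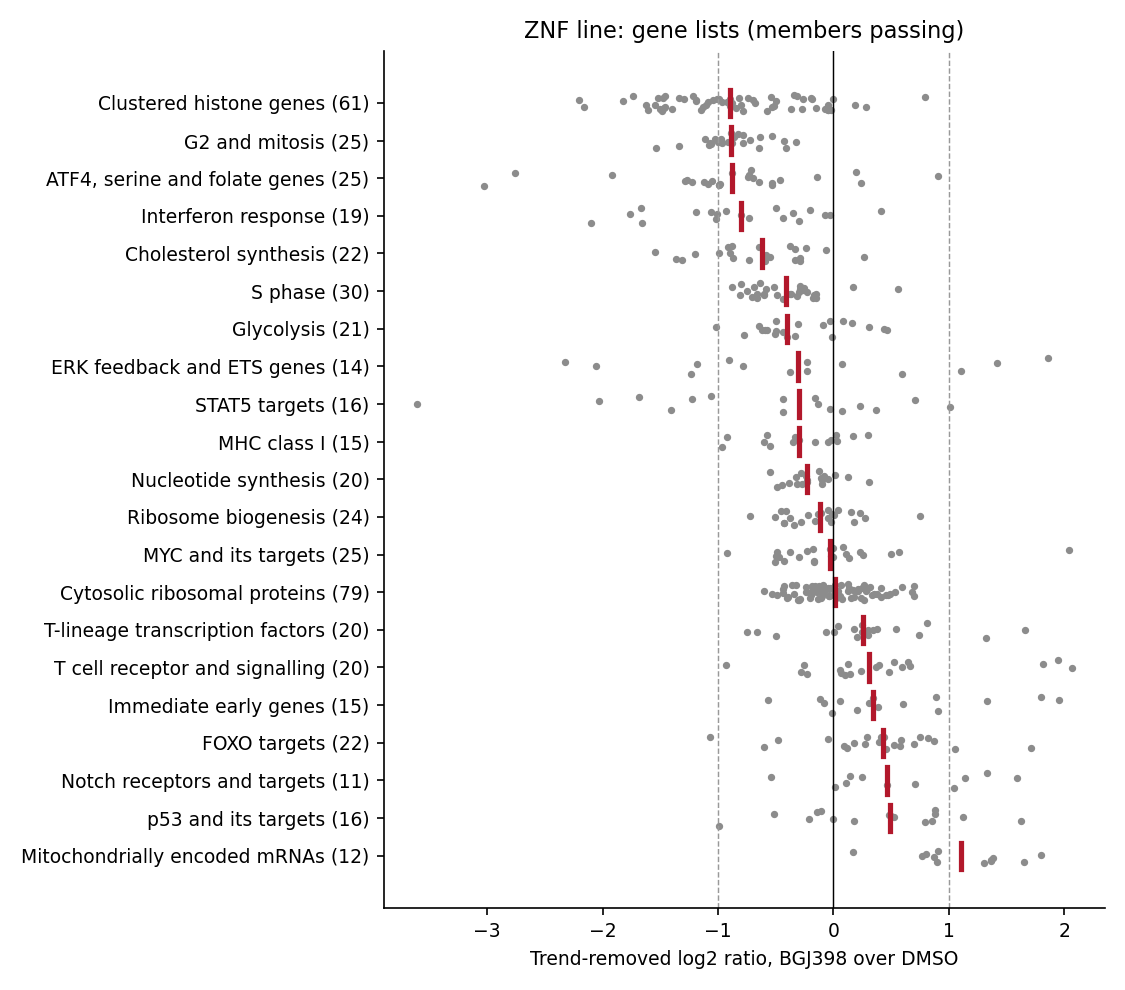
Trend-removed log2 ratio of BGJ398 over DMSO in ZNF for the members of each gene list that passed the mean of 1 FPKM (number in brackets). Grey points are genes, red bars are list medians, and dashed lines mark 2-fold. Histone, mitotic, ATF4 and interferon lists have medians between -0.90 and -0.80. The MYC list (network factors and targets) and cytosolic ribosomal proteins lie at -0.03 and 0.01, and mitochondrially encoded mRNAs lie at 1.11.

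By the rule for single genes, the 15 lowest and the 15 highest trend-removed ratios among entries with at least 5 FPKM in 1 library were to be named. That rule leaves out some classes of symbol, such as clone-based and small nucleolar RNA names, among them the entry with the highest ratio of all. All 15 of the highest that it kept were short or unannotated noncoding entries at 0.001 FPKM with DMSO (mt-Ts2 led, at 5153 FPKM with BGJ398), and 10 of the 15 lowest were not protein-coding. The lowest was mt-Tq, at 7495 and 0.001 FPKM. The lncRNA H19 was also among them, at 122 and 6.90 FPKM. The rule was therefore repeated on protein-coding entries, which was decided after the values were seen.

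Among protein-coding entries, Bcl2 was followed at the lower end by Vim (ENSMUSG00000026728, chr2:13495554-13504453 in NCBIM37), which encodes the intermediate filament vimentin and went from 138 to 7.02 FPKM, a ratio of -4.11 as deposited and -3.33 with the trend removed. Gmppb, an enzyme of GDP-mannose synthesis, went from 47.1 to 2.56 FPKM, and 2 other entries share its locus. Akr1c13, an aldo-keto reductase, went from 593 to 52.3 FPKM (-2.55). Arid5a, which stabilizes inflammatory mRNAs, was at 51.6 and 5.86 FPKM (-2.25), and Ccdc109b, a subunit of the mitochondrial calcium channel, at 52.8 and 6.15 (-2.22). The other 9 were Nupr1, Trib3, Dusp6, Ifitm1, Ifitm3 and Ifngr1, described above, and Prelid2, Tgtp1 and Tubb3. Tgtp1 and Tubb3 share their loci with 8 and 63 other entries.

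At the higher end, 7 of the 15 protein-coding entries were under 0.5 FPKM with DMSO. Mid1 led, with a trend-removed ratio of 5.69, and 5 other entries share its locus. It was followed by Xkrx (2.44 and 93.4 FPKM), whose locus holds Cstf2 and Nox1. Alox5ap, which presents arachidonic acid to 5-lipoxygenase, went from 1.06 to 35.2 FPKM (4.62), and Ltb4r2, a leukotriene B4 receptor, from 0.441 to 17.1 (3.92). Pkib, an inhibitor of protein kinase A, was at 1.96 and 31.4 FPKM, Fstl1 at 3.03 and 37.2, and Ltbp1, which binds latent TGF-β, at 3.06 and 35.7.

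Restricting the choice to genes with at least 5 FPKM with DMSO, which was also decided after the values were seen, leaves genes that were already expressed. Zfp488, a zinc finger repressor, went from 14.8 to 143 FPKM (trend-removed ratio 4.03), and Fgd4, an exchange factor for CDC42, from 9.89 to 83.2 (3.72). Wapal, which releases cohesin from chromatin, went from 123 to 625 FPKM (3.24). Cd200, an inhibitory surface glycoprotein, was at 9.39 and 33.9 FPKM (2.44), and Ssbp2 at 40.2 and 127 (2.53). Lcp2, Mxd4, Btg2 and Cd8a were among these 15 too.

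The entries that were scarce with DMSO make up much of the higher group. Of 637 protein-coding entries at least 2-fold higher with the trend removed, 234 (36.7%) were under 0.5 FPKM with DMSO, a class that the mean of 1 FPKM admits only when BGJ398 is higher, and 161 were at 5 FPKM or more. In all, 2287 entries lay under 0.5 FPKM with DMSO and over 1 FPKM with BGJ398, and 117 lay over 1 and under 0.5 in the reverse order. Some regulators of other blood lineages were scarce with DMSO too. Pax5 (B cells) went from 0.215 to 4.66 FPKM and Spib (B cells) from 0.0784 to 4.53. Cebpa (myeloid cells) went from 0.0488 to 5.02 FPKM and Tal1 (stem and erythroid cells) from 0.882 to 8.80. Gata1 (erythroid cells) was not scarce with DMSO and was lower with BGJ398, at 5.17 and 1.89 FPKM. Of the surface and granule genes of these lineages, Cd79b, Ms4a1, Lyz2 and Mpo were listed at 0 in both libraries, and Cd79a was at 0.178 and 1.12 FPKM. The part of depth or RNA quality in the values of scarce entries was not tested.

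**Figure D4:**
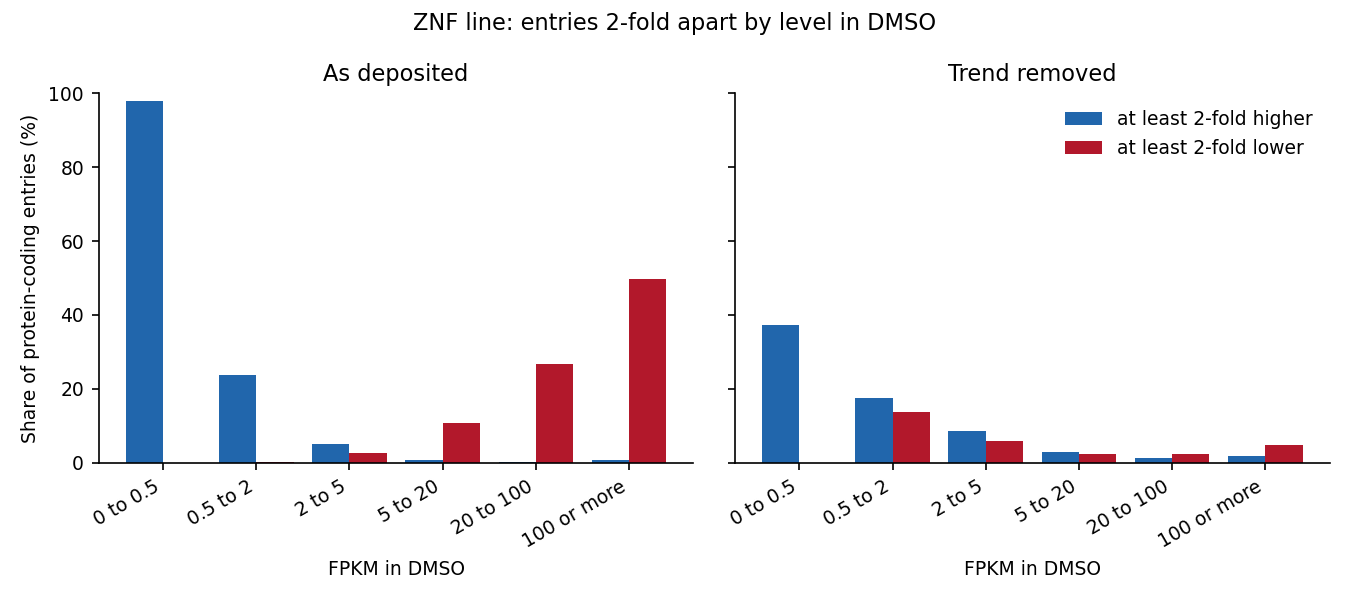
Share (%) of protein-coding entries at least 2-fold higher (blue) or lower (red) with BGJ398 in 6 classes of FPKM with DMSO, as deposited (left) and with the trend removed (right), 1 library on each side. Of 626 entries under 0.5 FPKM with DMSO, 614 were higher as deposited, and of 709 at 100 FPKM or more, 353 were lower, and 234 and 33 were so with the trend removed. Entries under 0.5 FPKM with DMSO reach the mean of 1 FPKM only through the BGJ398 library, so that class had to be higher.

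The mRNAs encoded by the mitochondrial genome, which specify core subunits of the respiratory chain, lay above the curve. Of 12 mitochondrial mRNAs, 11 had a ratio above 0 as deposited and 6 were at least 2-fold higher with the trend removed, with medians of 0.43 and 1.11. The highest was mt-Nd6, a subunit of complex I, at 196 and 364 FPKM, and the exception was mt-Nd3, at 4586 and 3336 FPKM. The 81 nuclear genes of oxidative phosphorylation had medians of -0.97 as deposited and -0.15 with the trend removed. Few points lie at the highest levels, where the curve is set by these same abundant entries.

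The same ratios were set beside those of BBC and BCRF8C, whose values come from their own pairs of libraries. The difference between lines was tested by taking the ratio of ZNF against the mean ratio of the other 2 lines, with 1 residual degree of freedom. By limma with Benjamini-Hochberg adjustment, 0 of 14232 entries (0.0%) differed as deposited (819 at an unadjusted p under 0.05, smallest adjusted p = 0.44), and 0 with the trend removed (705 unadjusted, smallest adjusted p = 0.456). What follows is thus a description of 3 lines that also differ in dose.

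The median trend-removed ratio of the ATF4 list was -0.87 in ZNF, -0.89 in BBC and -1.17 in BCRF8C, and that of cholesterol synthesis was -0.62, -0.58 and -0.74. The interferon median was -0.80 in ZNF, -0.75 in BBC and 0.24 in BCRF8C. For G2 and mitosis, ZNF had the lowest median (-0.89), with 0.34 in BBC and 0.13 in BCRF8C, whereas as deposited the 3 medians were -1.67, -1.34 and -1.61. The MYC list of network factors and targets was at -0.03 in ZNF, -1.32 in BBC and -0.37 in BCRF8C, and ribosome biogenesis at -0.12, -1.56 and -0.96. No member of these lists was called. Bcl2 had ratios as deposited of -4.29 in ZNF, -1.06 in BBC and -1.60 in BCRF8C (limma adjusted p = 0.63 for the difference), from DMSO levels of 79.2, 3.14 and 39.6 FPKM. Vim had -4.11, -2.38 and -2.16 (limma adjusted p = 0.63). Lcp2 was 1.26 in ZNF, -0.72 in BBC and -1.19 in BCRF8C (limma adjusted p = 0.63).

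**Figure D5:**
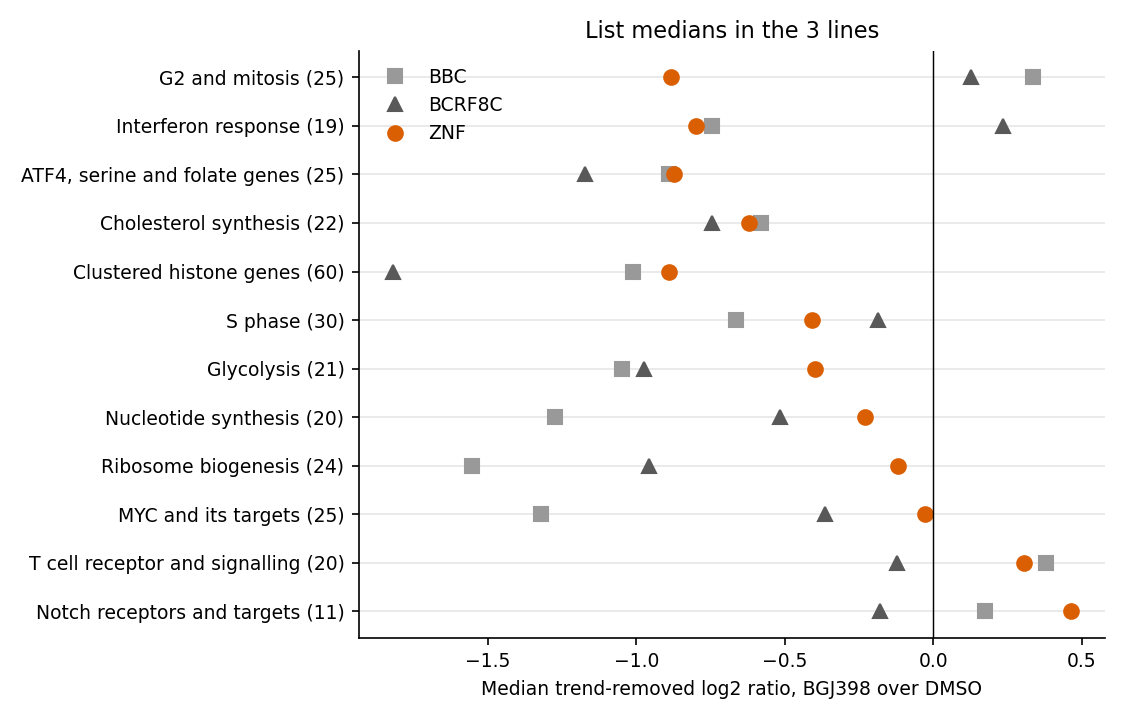
Median trend-removed log2 ratio of BGJ398 over DMSO for 12 gene lists (number of genes in brackets) in ZNF (orange circles), BBC (grey squares) and BCRF8C (dark triangles), each from 1 library per agent. The 3 lines lie within -1.17 to -0.58 for the ATF4 and cholesterol lists, while for G2 and mitosis ZNF is at -0.89 and the other lines are above 0.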

How the data were processed

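The authors deposited 1 table of FPKM values for 6 libraries of total RNA, without replicates. Per the submitters' processing notes, reads were handled with bcl2fastq and TopHat2 (version 2.0.12) on the build NCBIM37. The sources used here do not give the FPKM program, annotation, filter, depth or strand, so no counting interval was computed. Ratios were log2 with a pseudocount of 1 FPKM, and 2-fold means an absolute log2 ratio of at least 1. The trend was a loess curve (limma 3.58.1 in R 4.3.3, span 0.3, 4 iterations). Lines were compared with limma. The scripts were tested on simulated data. Gene types came from GENCODE vM21 by identifier (15944 matched), promoters from RefSeq. Entries with a shared symbol were represented by the most abundant one.

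Members, gene lists and tests were chosen with earlier results of these data known. Genes named were the 15 extremes each way (at least 5 FPKM), up to 4 extremes of each list and a set named always. Further members were named as examples after their values were seen. Alternatives covered pseudocount, filters, scaling, loess span and gene type. Some list members are not reported here by name.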

Additional observations from a re-analysis of the deposited data

Results flagged for a closer look

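Etv4, an ETS transcription factor, is given here because its difference in ZNF opposed that in the other lines. Of 165 genes open to naming, it alone was at least 2-fold one way in ZNF and at least 2-fold the other way in both other lines as deposited. Its log2 ratio was 2.23 in ZNF (0.342 and 5.29 FPKM with DMSO and BGJ398), -2.94 in BBC (10.3 and 0.484 FPKM) and -2.50 in BCRF8C (17.5 and 2.28 FPKM). In limma the difference had an unadjusted p of 0.00242 and an adjusted p = 0.63 over all 14232 entries, and with the trend removed an adjusted p = 0.896, so it did not pass. ZNF was nearly silent for this gene with DMSO, and the entry belongs to the class of scarce entries that had to be higher with BGJ398 to be listed above 0.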

How the results depend on the processing

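Each value rests on 1 library per side, depth is unknown, and low FPKM carry the least information. As deposited, the 1635 higher entries became 536 with a pseudocount of 5, 388 with a mean of at least 5 FPKM, 2487 with no filter on the mean and 896 for protein-coding entries. The 2020 lower entries became 1168 with a pseudocount of 5, 441 with scaling by the median of ratios and 961 after quantile normalization. With the trend removed, the 1210 higher entries became 643 with a pseudocount of 5, 608 with a mean of at least 5 FPKM and 647 for protein-coding entries, and the 690 lower entries became 1063 with a pseudocount of 0.1, 216 with a pseudocount of 5, 318 with a mean of at least 5 FPKM and 357 for protein-coding entries. The restriction to protein-coding entries was chosen after seeing the data. The curve was refitted for it, so its trend-removed counts differ from the 637 and 372 taken from the curve through all entries. Of 38 list medians with the trend removed, 31 kept their sign under each alternative and 7 changed it (B cell markers, cytosolic ribosomal proteins, G1 cyclins, MHC class II, olfactory receptors, stem and progenitor genes and Zfp genes). The 17 medians of at least 0.3 in size were among the 31, but several shrank or grew by over 1.5 times: interferon -0.84 to -0.49, p53 0.09 to 0.52, ERK feedback -0.49 to -0.16, immediate early genes 0.21 to 0.60, Notch 0.30 to 0.51, T cell receptor genes 0.19 to 0.34 and FOXO targets 0.27 to 0.48. The comparison between lines gave 0 calls by limma in each of 6 settings, with 461 to 1115 entries at an unadjusted p under 0.05 and a smallest adjusted p of 0.054, reached with the trend removed and entries above 0.001 FPKM in all 6 libraries. No paired analysis was possible within ZNF because it has 1 library per agent. A test of BGJ398 against DMSO paired by line over the 3 lines was not run here. Leaving out a replicate was not possible within ZNF.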

Other observations

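Receptor families of sensory neurons were listed at low levels. Of 402 olfactory receptor entries, 185 were at 0 in both ZNF libraries and 21 passed the mean of 1 FPKM, and 20 of these 21 were at least 2-fold higher with BGJ398 as deposited and 3 with the trend removed. All 4 vomeronasal receptor entries that passed were at least 2-fold higher as deposited. These entries belong to the scarce class described above. By contrast the 276 Zfp zinc finger genes that passed had medians of -0.37 as deposited and 0.04 with the trend removed. With the trend removed 8 members were at least 2-fold higher and 5 lower.

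Among entries that passed, the values of short RNAs differed by class. The 46 miRNA entries that passed had a median of 0.001 FPKM with DMSO and 137 with BGJ398, and the 32 snRNA entries 0.001 and 11.9. Entries at 0.001 FPKM with DMSO reach the mean of 1 FPKM only through the BGJ398 library. These medians therefore had to be higher with BGJ398. The 138 snoRNA entries had 345 and 189 FPKM, and the 13 mitochondrial tRNA entries a median log2 ratio of -2.59. Processed pseudogenes were more often lower than higher with the trend removed (149 against 53 of 547).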
